A study of Mus musculus with 2 samples.

Results

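The Mir130 and Mir301 family comprises 4 mouse microRNA genes at 3 loci, Mir130a, Mir301 (which makes miR-301a) and the neighbouring pair Mir130b and Mir301b. The 4 genes were found by matching the stable Ensembl identifiers of the deposited tables to GENCODE mouse gene symbols, and all 4 were among the 1973 microRNA genes listed. Small RNA from hearts of embryos of the mouse strain B6NCrl at embryonic day 10.5 was sequenced in 2 libraries. Replicate 2 came from a pool of 51 embryos and replicate 1 from a pool of 69, both of mixed sex and labelled healthy. The labels number the pools as biological replicates and give them the same donor entry, and no allele or treatment is named. The design held 1 group. The data thus give the levels of the genes as counted reads in this tissue, the ratios between them and how closely the pools agreed. Each library is a whole dissected tissue with many cell types, in which fewer cells of a type and less RNA per cell cannot be told apart.

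A microRNA is cut from a hairpin transcript as a short single strand, and it pairs with messenger RNAs mainly through its seed, the bases 2 to 8 counted from its 5′ end. Members of a microRNA family share the seed and are therefore thought to repress overlapping sets of messenger RNAs. The family is known from endothelial and vascular cells, where miR-130a was described to repress the homeobox genes Meox2 (GAX) and Hoxa5, and from lung vessels, where it was linked to pulmonary hypertension through the nuclear receptor gene Pparg. In mouse heart, miR-130a was described to repress Zfpm2 (FOG2), a cofactor of GATA factors that is needed for septation and coronary vessel formation.

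The mature sequences show what the genes have in common. They are given 5′ to 3′ as in RefSeq (assembly GRCm38.p6, the same coordinates as mm10), with the seed in capitals. Of the 4 genes, Mir130a, Mir130b and Mir301 had an entry for the 3′ arm, all 4 had one for the 5′ arm, and miR-301b-3p had none.
miR-130a-3p: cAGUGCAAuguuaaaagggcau
miR-130b-3p: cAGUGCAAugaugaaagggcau
miR-301a-3p: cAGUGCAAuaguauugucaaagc
miR-130a-5p: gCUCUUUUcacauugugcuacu
miR-130b-5p: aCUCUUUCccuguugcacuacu
miR-301a-5p: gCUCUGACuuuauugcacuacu
miR-301b-5p: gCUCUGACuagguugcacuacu
The 3′ arms shared the seed AGUGCAA. On the 5′ arm the seed CUCUGAC was shared by miR-301a-5p and miR-301b-5p, whereas miR-130a-5p and miR-130b-5p had the seeds CUCUUUU and CUCUUUC.

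The hairpins show the seed in all 4 genes, including Mir301b. Capitals mark the heptamer AGUGCAA of the 3′ arm and, where present, its exact reverse complement UUGCACU on the 5′ arm.
Mir130a: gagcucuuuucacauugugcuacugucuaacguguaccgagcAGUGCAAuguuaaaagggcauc
Mir130b: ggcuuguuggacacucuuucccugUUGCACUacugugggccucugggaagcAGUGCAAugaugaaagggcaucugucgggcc
Mir301: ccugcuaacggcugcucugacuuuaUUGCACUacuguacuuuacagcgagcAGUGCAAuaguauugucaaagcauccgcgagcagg
Mir301b: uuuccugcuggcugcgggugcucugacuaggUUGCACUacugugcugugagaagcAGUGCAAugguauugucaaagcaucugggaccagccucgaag
Each hairpin held AGUGCAA 1 time. The reverse complement stood on the 5′ arm of Mir130b, Mir301 and Mir301b and not in the Mir130a hairpin. Over the 22 bases that begin 1 base before the heptamer, Mir130a and Mir130b were identical at 20 and differed by U11A and A13G, with positions counted from the first of these bases and the Mir130a base written first. Mir301 and Mir301b were identical at 21 of the 22 bases and differed by A10G, with the Mir301 base first. Between the Mir130 and the Mir301 genes 11 to 13 of the 22 bases were identical. The genes thus paired by sequence as Mir130a with Mir130b and Mir301 with Mir301b, while the genomic pair Mir130b and Mir301b combined 1 of each kind.

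None of the 4 hairpins had a near-identical copy, meaning an exact stretch of 20 or more bases in another RefSeq mouse hairpin. The longest shared stretches were 17 bases between Mir130a and Mir6389, 16 between Mir130b and Mir6368, and 16 between Mir301 and Mir301b. Of 141767 GENCODE M21 transcripts, the 22-base arm of each gene was found in the transcript of that gene alone. The tables hold reads mapped to several places in a row of their own, so this bears on how completely a gene was counted. The genome was not searched, so a copy of an arm outside these hairpins and transcripts would have been missed. How a read with a mismatch was placed is not stated in the labels or files, which concerns Mir301 and Mir301b with their difference of 1 base.

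The 3 loci differ in their surroundings (positions on mm10, annotation from GENCODE M21). Mir130a (ENSMUSG00000065484.1) lies on the minus strand of chromosome 2 at 84741115 to 84741178. It overlaps no other annotated gene, and the nearest protein-coding gene, Gm19426, is 990 bases away on the same strand. Mir301 (ENSMUSG00000065589.1) lies on the plus strand of chromosome 11 at 87113004 to 87113089, in intron 1 of both overlapping transcripts of Ska2, which encodes a subunit of the spindle and kinetochore associated complex. Mir130b (ENSMUSG00000065572.1) occupies 17124061 to 17124142 on the minus strand of chromosome 16. Mir301b (ENSMUSG00000076288.1) occupies 17124400 to 17124496 on the same strand, upstream of Mir130b and 257 bases from it. Both lie in intron 1 of all 3 overlapping transcripts of 2610318N02Rik, a protein-coding gene read in the same direction, and Mir301b begins 610 to 671 bases from the starts of these transcripts. Within 50 kb of the 4 genes the only other annotated microRNA genes were the partners of this pair.

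The seed pairs with the heptamer TTGCACT in a messenger RNA. The 30-base windows around its occurrences in the annotated 3′ UTR of Zfpm2, the gene described as a target of miR-130a in heart, show such sites, with the match in capitals.
Zfpm2 site 1, chr15:41103883-41103912, plus strand of mm10: agcacatatggtTTGCACTgtatagtagct
Zfpm2 site 2, chr15:41104095-41104124, plus strand of mm10: atcaggctccaaTTGCACTttatattttag
The sites were 2 matches in a 3′ UTR of 1016 bases. Among other genes described as targets of the family, the homeobox gene Meox2 had 2 matches, and Hoxa5 and Pparg had 1 each. Of the longest 3′ UTR of each of 21020 protein-coding genes, searched on the transcript strand, 9.98% held the heptamer. Among UTRs whose length was within 20% of each of these, the share was 7.64% for Zfpm2, 8.96% for Meox2, 7.34% for Hoxa5 and 1.16% for Pparg. These genes were picked because they are described as targets, so setting them beside the shares is no test of enrichment. The matches describe these sequences, and no messenger RNA was measured here.

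The family was abundant among the reads counted to genes in the heart, and Mir130a supplied most of its counts. The values are own-strand counts, that is, reads on the strand of the gene, and CPM, counts per 1000000 own-strand gene counts of the library. These gene counts totalled 4789068 in replicate 2 and 4163656 in replicate 1. Together the 4 genes held 106534 counts in replicate 2 and 107818 in replicate 1. This was 2.22% of gene counts in replicate 2 (95% exact Clopper-Pearson interval 2.21 to 2.24) and 2.59% in replicate 1 (2.57 to 2.60), on average 2.41% ± 0.258 (SD, n = 2). These and all other intervals reflect counting alone, because they hold no term for variation between pools. PCR copies cannot be told from separate molecules in these counts, so the intervals may be too narrow even for counting. The shares of the libraries lay outside each other's intervals.

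Mir130a, the member tied to vessels and heart, had 78660 counts in replicate 2 and 76557 in replicate 1. Its level was 16425 CPM in replicate 2 and 18387 CPM in replicate 1, on average 17406 ± 1387 CPM (SD, n = 2). It ranked 14 of the 1973 genes in replicate 2 and 11 in replicate 1. By counted reads it thus stood among the leading genes in both pools. Reads mapped to several places, 23.5% of all reads in replicate 2 and 23.3% in replicate 1, are not entered to genes. Ranks and shares therefore hold among the counted reads only, and genes that share a mature strand may be ranked too low. The most abundant gene of the tables, Mir335, which lies within Mest, had 151298 ± 16851 CPM.

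Mir130b, the more abundant gene of the chromosome 16 pair, had 20477 counts in replicate 2 and 24005 in replicate 1. This was 4276 CPM in replicate 2 and 5765 CPM in replicate 1, on average 5021 ± 1053 CPM, with rank 43 in replicate 2 and 44 in replicate 1. Among the 4 genes its level had the largest SD relative to its mean after that of its neighbour Mir301b.

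Mir301, the Ska2 intron gene, had 6949 counts in replicate 2 and 6708 in replicate 1, or 1451 CPM and 1611 CPM in the same order. Its average was 1531 ± 113 CPM, and it ranked 69 in replicate 2 and 78 in replicate 1. Relative to its mean, its SD was the smallest of the 4 genes.

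Mir301b, the minor gene of the pair, had 448 counts in replicate 2 and 548 in replicate 1. Its level was 93.5 CPM in replicate 2, with an exact 95% interval of 85.1 to 103, and 132 CPM in replicate 1, with one of 121 to 143, on average 113 ± 26.9 CPM, with ranks 202 and 195. It was far below its neighbour and its sequence relative Mir301, yet well above the limit that a count of 0 allows, which is 3 counts or 0.626 CPM in replicate 2 and 0.721 CPM in replicate 1.

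**Figure D1:**
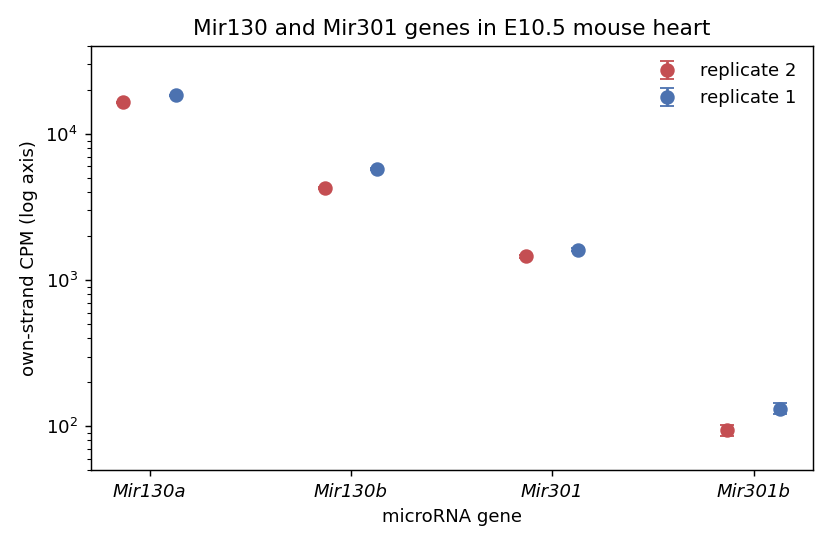
Own-strand CPM (log axis) of Mir130a, Mir130b, Mir301 and Mir301b in replicate 2 (red) and replicate 1 (blue), with 95% exact intervals that cover counting error only. The points run from 16425 and 18387 CPM for Mir130a to 93.5 and 132 CPM for Mir301b, and no gene's values overlap those of another gene.

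**Figure D2:**
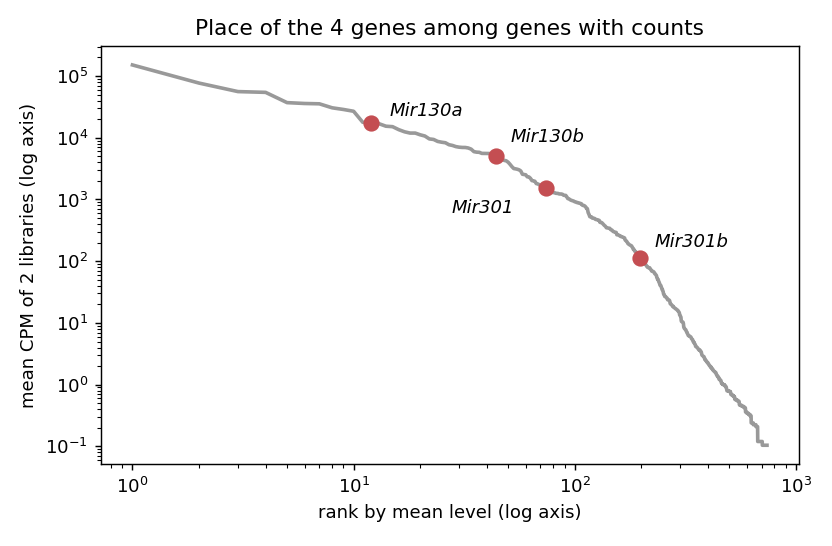
Mean CPM over the 2 libraries (log axis) against rank (log axis) for all genes with at least 1 count, with the 4 genes as red points. Mir130a lies near the top at rank 12, Mir130b at 44, Mir301 at 74 and Mir301b at 197.

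On the opposite strand none of the 4 genes had a read in either library. A count of 0 allows up to 3 reads, so antisense reads were not detectable at this depth, and the counts over both strands equal the own-strand counts for each member.

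Within the family, Mir130a held 73.8% of counts in replicate 2 (exact 95% bounds 73.6 to 74.1) and 71.0% in replicate 1 (70.7 to 71.3). Mir130b held 19.2% in replicate 2 and 22.3% in replicate 1, Mir301 6.52% and 6.22% in the same order, and Mir301b 0.421% and 0.508%. The order Mir130a, Mir130b, Mir301, Mir301b was the same in both libraries, and it was also the same when CPM was divided by the length of the hairpin (64, 82, 86 and 97 bases in that order), which ran from 257 down to 0.964 CPM per base in replicate 2 and from 287 to 1.36 in replicate 1. A small RNA read spans the mature strand and not the hairpin, so undivided counts are used otherwise. The tables count hairpins, and how the counts split between the 5′ and 3′ arms was not analysed here.

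The steps between neighbours in this order were larger than the spread between the libraries. Mir130a exceeded Mir130b 3.84-fold in replicate 2 (exact 95% bounds 3.78 to 3.90) and 3.19-fold in replicate 1 (3.14 to 3.24), a log2 ratio of 1.81 ± 0.19 (SD, n = 2). Mir130b exceeded Mir301 2.95-fold in replicate 2 (2.87 to 3.03) and 3.58-fold in replicate 1 (3.48 to 3.68), a log2 ratio of 1.70 ± 0.20. Mir301 exceeded Mir301b 15.5-fold in replicate 2 (14.1 to 17.1) and 12.2-fold in replicate 1 (11.2 to 13.4), a log2 ratio of 3.78 ± 0.24. With 2 libraries the smallest two-sided p of an exact sign-flip test is 0.5, and no test of the ratios was made. How evenly different sequences were captured as reads was not measured and lies outside the bounds. All ratios between genes here are therefore ratios of reads.

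The clustered genes Mir130b and Mir301b, 257 bases apart, had very unequal counts in both libraries. Mir130b exceeded Mir301b 45.7-fold in replicate 2 (exact 95% bounds 41.6 to 50.3) and 43.8-fold in replicate 1 (40.2 to 47.8), with a log2 ratio of 5.48 ± 0.04 (SD, n = 2). The odds ratio of replicate 2 over replicate 1 for this pair was 1.04 (exact conditional 95% interval 0.918 to 1.19), so a change of the proportion between the pools was not detectable at this depth.

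Mir130a and Mir301 lie on different chromosomes, and a change in their proportion was not detectable either. Mir130a exceeded Mir301 11.3-fold in replicate 2 (11.0 to 11.6) and 11.4-fold in replicate 1 (11.1 to 11.7), with an odds ratio of 0.992 (0.958 to 1.03). The 4 proportions between these 2 genes and the chromosome 16 pair did shift beyond counting error. The odds ratio was 1.20 (1.18 to 1.23) for Mir130a over Mir130b, 0.823 (0.792 to 0.856) for Mir130b over Mir301, 1.26 (1.11 to 1.43) for Mir130a over Mir301b and 1.27 (1.11 to 1.45) for Mir301 over Mir301b. In each of these 4 the chromosome 16 gene had a smaller share of the pair's counts in replicate 2 than in replicate 1. Mir130a over Mir301 and Mir130b over Mir301b showed no detectable change. The 4 shifts are therefore largely the same contrast and not separate observations. All 6 pairs of members were compared, and a ratio within a library does not depend on how the libraries are scaled. The share of shifted pairs among all genes was not computed. Since 61.6% of tested genes differed between the libraries beyond counting error under TMM scaling (below), a shift does not set these pairs apart.

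**Figure D3:**
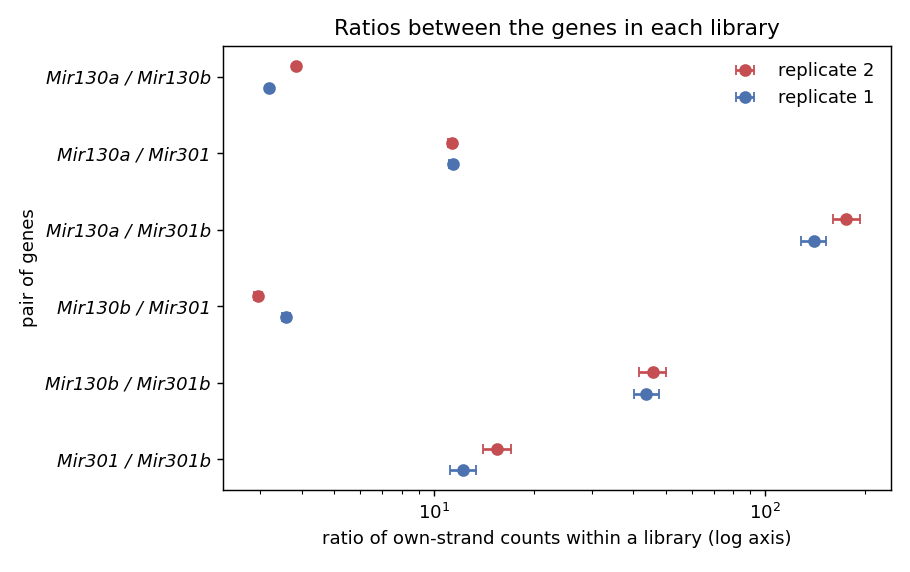
Ratio of own-strand counts within a library (log axis) for the 6 pairs of genes in replicate 2 (red) and replicate 1 (blue), with 95% exact intervals that cover counting error only. The intervals of the libraries overlap for Mir130a over Mir301 and for Mir130b over Mir301b and are apart for the other 4 pairs.

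The libraries were then compared gene by gene, as a comparison of 2 libraries and not of conditions. The 424 genes that reached 10 counts in either library were tested. All 4 members were among them, and each exceeded 10 counts in both libraries. Library sizes were scaled by TMM, which assumes that most genes do not differ, and each gene was given an exact two-sided binomial test with Benjamini-Hochberg adjustment over the 424 genes. All 4 members passed at an adjusted p of 0.05, where 61.6% of all tested genes passed, so passing does not set the members apart. Judged by this test most genes did differ, so the assumption of TMM was not met. The directions that follow depend on the scaling. Mir130a and Mir301 were higher in replicate 2, as were 30.4% of tested genes, with log2 ratios of replicate 2 over replicate 1 of 0.11 (95% exact interval 0.10 to 0.13, adjusted p = 8.74e-52 in the exact binomial test) and 0.12 (0.07 to 0.17, adjusted p = 1.4e-06). Mir130b and Mir301b were lower in replicate 2, as were 31.1% of tested genes, with log2 ratios of -0.16 (-0.18 to -0.13, exact binomial adjusted p = 1.12e-29) and -0.22 (-0.40 to -0.04, adjusted p = 0.0315). In the same exact binomial test Mir301 did not pass with DESeq2 size factors over all genes (adjusted p = 0.064), which came out as 1 for both libraries and so left the counts unscaled, and passed with size factors from the 424 tested genes (adjusted p = 2.8e-07). Mir301b did not pass with counts over both strands (adjusted p = 0.0618) or without the filter on low counts (adjusted p = 0.0544).

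These directions hold only relative to the other genes. With total counts as the scaling, under which 61.8% of genes passed (15.6% higher and 46.2% lower in replicate 2), every log2 ratio was lower by 0.27 and the median of the tested genes was -0.29, against -0.01 under TMM. Then all 4 members were lower in replicate 2, Mir130a at -0.16, Mir301 at -0.15, Mir130b at -0.43 and Mir301b at -0.49. Relative to the median of the tested genes, which a scaling moves together with every gene, the log2 ratios were 0.12 for Mir130a, 0.13 for Mir301, -0.15 for Mir130b and -0.21 for Mir301b. Relative to the median of all genes with a count, without the filter on low counts, they were 0.04 for Mir130a, 0.05 for Mir301, -0.23 for Mir130b and -0.29 for Mir301b.

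Under TMM the members differed less between the pools than most tested genes did, and with total counts Mir130b and Mir301b lay near the middle of the tested genes. Their absolute log2 ratios of 0.11 to 0.22 under TMM stood beside a median of 0.47 over the 424 tested genes, a 1.38-fold difference. A larger absolute log2 ratio was found for 88.0% of tested genes in the case of Mir130a, 87.0% for Mir301, 81.4% for Mir130b and 73.3% for Mir301b. With total counts the share was 80.9% for Mir130a, 81.8% for Mir301, 54.5% for Mir130b and 49.5% for Mir301b. Over the 276 genes with at least 100 counts in a library, a closer match to the members in depth, the median absolute log2 ratio was 0.44.

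**Figure D4:**
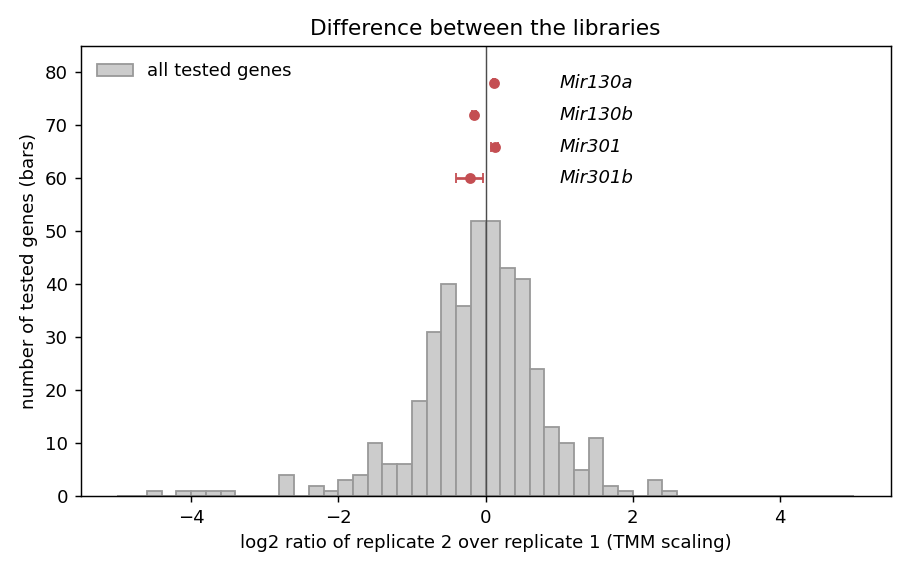
Histogram of the log2 ratio of replicate 2 over replicate 1 (TMM scaling) for the 424 tested genes in grey, with the 4 genes and their 95% exact intervals as red points above it, whose height has no meaning. Mir130a and Mir301 lie at 0.11 and 0.12, Mir130b and Mir301b at -0.16 and -0.22, all close to the centre of the distribution.

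Among the marker lists of cell types, the summed levels of the Hox-cluster, liver, epithelial and heart muscle lists differed most between the pools, and those of the endothelial, smooth muscle, red blood cell and leukocyte lists less. The heart muscle genes Mir208a, Mir208b and Mir499 were all detected, at a summed 69047.5 CPM in replicate 2 and 34740 CPM in replicate 1, and all 3 passed the test as higher in replicate 2. Endothelial Mir126a had 55504 CPM in replicate 2 and 53306 CPM in replicate 1, and the smooth muscle genes Mir143 and Mir145a a summed 86022 and 69745 CPM in the same order. The Hox-cluster list of 5 genes fell to 1940 CPM in replicate 2, against 17064 CPM in replicate 1, with 4 genes passing. The 6 epithelial genes summed to 1831 CPM in replicate 2 and 6477 CPM in replicate 1, and the liver genes Mir122 and Mir192 to 222 CPM and 3224 CPM, with all genes of both lists passing as lower. The red blood cell list of 3 genes had 1713 CPM in replicate 2 and 1160 CPM in replicate 1, and Mir223 and Mir155 of leukocytes a summed 332 and 454 CPM. The leukocyte genes went opposite ways. Mir223 passed as lower in replicate 2 (118 CPM, against 240 CPM in replicate 1), and Mir155 as higher under TMM, with 214 CPM in each. Mir142 of this list is not among the listed identifiers. Of 5 listed nervous system genes, Mir124a-1, Mir124a-2, Mir124a-3 and Mir9-2 were at 0 in both libraries, and Mir9-3 had 7 counts in each. Reads of a mature strand that several genes make map to several places and are not entered to genes. The low counts of these numbered genes therefore do not show absence. Replicate 1 thus held more counts of Hox, epithelial and liver genes, and the part of this in the differences of Mir130b and Mir301b was not tested.

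Other microRNA genes with the same seed gave no counts. RefSeq lists miR-130c, miR-721, miR-6341 and miR-6389 with the seed AGUGCAA besides the family. Mir130c, Mir6341 and Mir6389 are in the tables and had 0 counts in both libraries, which allows up to 0.626 CPM in replicate 2 and 0.721 CPM in replicate 1 for each. Mir721 is not among the listed identifiers and was not analysed here. The miR-130c sequence shows how alike these can be to miR-130a-3p in their first part, with the seed in capitals.
miR-130c: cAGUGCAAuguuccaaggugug
Among the listed genes with this seed in a RefSeq mature entry, those with counts were Mir130a, Mir130b and Mir301.

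A further 8 listed genes have a seed that overlaps AGUGCAA in 6 bases, and all 8 had counts. The capitals mark the 6 shared bases in the gene of each kind with the highest level in the tables.
miR-148a-3p: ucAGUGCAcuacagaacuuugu
miR-350-5p: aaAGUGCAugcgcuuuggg
miR-19a-3p: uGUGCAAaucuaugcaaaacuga
The highest listed level was that of Mir148a, with 898 CPM in replicate 2 and 855 CPM in replicate 1, followed by Mir350 with 327 and 357 CPM and Mir148b with 172 and 188 CPM in the same order. The other 5, Mir152, Mir19a, Mir291b, Mir19b-1 and Mir19b-2, had mean levels of 139 down to 8.24 CPM. The summed counts of the 4 members exceeded those of the related family of Mir148a, Mir148b and Mir152 18.4-fold in replicate 2 (exact 95% bounds 17.9 to 18.9) and 21.9-fold in replicate 1 (21.3 to 22.6), so the separation was many times the difference between the libraries. Mir19b-1 and Mir19b-2 make the same mature strand, whose reads map to several places, so their counts are lower limits and no ratio to the 8 genes together is given. Mir350 is counted as a hairpin, of which the overlapping seed belongs to the 5′ arm only.

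**Figure D5:**
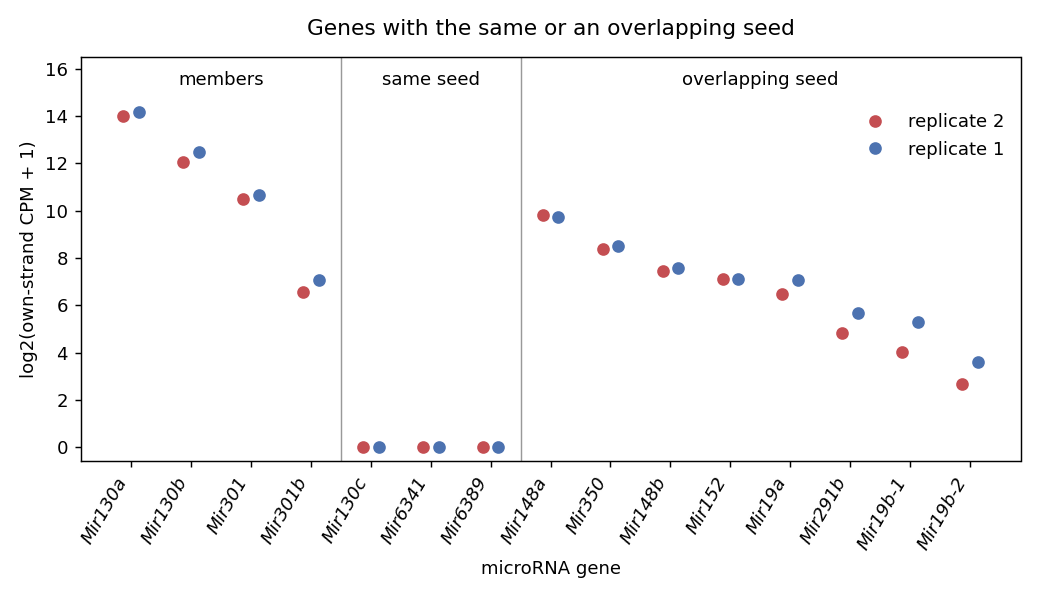
Log2(CPM + 1) of own-strand counts in replicate 2 (red) and replicate 1 (blue) for the 4 members, the 3 other listed genes with the same seed and the 8 listed genes with an overlapping seed. The same-seed genes outside the family lie at 0, and Mir148a has the highest listed level with an overlapping seed.

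The genes most like each member in level were found by the distance of log2(CPM + 1) over the 2 libraries, which with 2 libraries describes level and pool difference only. Nearest to Mir130a were Mir99b (distance 0.06) and Mir21a (0.29), nearest to Mir130b were Mir92-1 (0.14) and Mir106b (0.22), nearest to Mir301 were Mir467d (0.09) and Mir16-1 (0.19), and nearest to Mir301b were Mir19a (0.09) and Mir144 (0.19). Since both levels entered the distance, likeness in the pool difference is partly built in. The levels are those of counted reads. Reads of a mature strand shared with another gene, as may apply to Mir92-1 and Mir16-1, are not entered, so their levels may be lower limits. The log2 ratios of replicate 2 over replicate 1 (TMM) were 0.14 for Mir99b and 0.52 for Mir21a, beside 0.11 for Mir130a. They were -0.23 for Mir92-1 and -0.24 for Mir106b, genes of the Mir17 cluster and of a paralogous cluster, beside -0.16 for Mir130b. Mir467d had 0.06 and Mir16-1 -0.00037, beside 0.12 for Mir301, and Mir19a had -0.34 and Mir144 0.06, beside -0.22 for Mir301b.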

How the data were processed

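The 2 libraries belong to 1 group. Their values are read counts per microRNA gene as the authors deposited them, not normalized, with 1 table per library. The counts refer to mm10 and GENCODE M4 gene models, per the text files deposited with the libraries. No source at hand names the aligner, the counter or the trimming. The rows for reads outside genes stayed out of the totals. Of 10996991 reads in replicate 2 and 10042860 in replicate 1, 25.5% and 26.3% had no position, 23.5% and 23.3% had several, and 7.41% and 8.98% lay outside the genes on the own strand.

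Own-strand counts were turned into CPM of all gene rows. Of 1973 identifiers 1894 matched a GENCODE M21 symbol. The libraries were compared with an exact conditional binomial test (scipy 1.17.1, prior count 0.5 in ratios) on TMM-scaled sizes (edgeR 4.0.16). The test was tried on simulated Poisson counts with known changes, which hold counting error only, unlike these libraries. Its p-values measure the spread of reads between these 2 libraries only. The libraries were kept as separate replicates, as the labels number them. Their counts differed beyond sampling noise (chi-square of 354427, 739 degrees of freedom). Alternatives were total counts, DESeq2 1.42.0 size factors, both strands, other filters, totals and pseudocounts, and each library alone. Division by hairpin length and DESeq2 size factors from the tested genes were added after the data were seen. The text names the members, the genes with the same seed, the 3 highest with an overlapping seed, the 2 nearest in level to each member, hosts and neighbours, the most abundant gene and the marker genes. The described targets and the 5 lower genes with an overlapping seed were named outside this rule. The members and lists were chosen with earlier results of these data known.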

Additional observations from a re-analysis of the deposited data

How the results depend on the processing

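Of 81 recomputed values, 67 were kept. Ratios of replicate 2 over replicate 1 were kept with the same direction and side of the threshold. Levels and ratios between members were kept when they moved by less than 1 SD between the libraries. Numbers of called genes were judged by their fold, so 132 genes lower in replicate 2 and 196 with total counts counted as kept. Pseudocounts could hardly move these values, and filters left the log2 ratios unchanged though not the adjusted p-values. Part of the 67 was thus fixed in advance. Not counted are ratios between members over both strands, whose counts are the same, and values from 1 library alone, which move the mean of 2 by a fixed part of their SD. Leaving out the most abundant gene from the total gave mean levels of 20497 CPM for Mir130a, 1803 for Mir301 and 28337 for the 4 genes together, against 17406, 1531 and 24070 CPM. Mir130b and Mir301b rose as well, to 5904 and 132 CPM from 5021 and 113 CPM. They counted as kept only because their SD between the libraries was larger than this move. A total that also holds reads mapped to several places or outside the genes gave 9972 CPM for Mir130a, 2871 for Mir130b, 877 for Mir301, 64.4 for Mir301b and 13785 for the sum. These changes follow from the size of the total. The difference between the libraries depended on scaling: with total counts the log2 ratio of replicate 2 over replicate 1 turned to -0.16 for Mir130a and -0.15 for Mir301, and 66 genes were called higher in replicate 2, against 129. DESeq2 size factors over all genes were 1 for both libraries, which is no scaling, and Mir301 then had 0.051 and did not pass (exact binomial adjusted p = 0.064). With size factors from the tested genes, an alternative chosen after seeing the data, all 4 members kept their direction and passed, with 130 genes higher and 132 lower. Mir301b did not pass with counts over both strands (-0.19, exact binomial adjusted p = 0.0618) or without the filter on low counts (-0.22, adjusted p = 0.0544), where more genes were tested. With 448 and 548 counts, Mir301b is the member that depth limits most. Leaving out a library changed levels to those of the other library, as given above, and leaves no comparison between the libraries. No paired analysis was possible because there is 1 group only.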
